A study of Mus musculus with 20 samples.

Results

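The sacral L6-S1 dorsal root ganglia (DRG) of 5 female mouse embryos were compared with the lumbar L4-L5 DRG of the same 5 embryos. The animals were untreated, unmodified C57Bl/6 embryos at E18.5, shortly before birth, coded F3, F7, F8, F9 and F10, and whole ganglia of both levels were taken from each, so that 5 sacral and 5 lumbar libraries formed 5 pairs. These 10 libraries were chosen from the 20 of the study by the sex and level in their labels, and the other 10 came from male embryos of the same strain and age. Whether the 5 embryos came from 1 litter or several is not given. A gene was tested where its mean reached 0 on the deposited log2 RPKM scale (reads scaled to gene length and library size) at either level, and 14295 of the 29049 genes with a value in the series did so. Every difference below is the sacral minus the lumbar value in log2 RPKM.

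DRG hold the cell bodies of the sensory neurons of body wall, limbs and viscera, wrapped in satellite glia and connected through axons that Schwann cells ensheath. In the mouse the L4-L5 ganglia send most of their fibres to the hind limb, and the L6-S1 ganglia hold most of the sensory neurons of bladder, colon and reproductive organs. The Hox genes lie in 4 clusters, a to d, and are numbered by paralog group in the order in which they are expressed along the body, with groups 10 to 13 reaching furthest towards the tail. Sensory neurons are grouped by what they carry: parvalbumin and neurofilaments mark large myelinated neurons such as the proprioceptors of muscle, peptides such as substance P mark one class of nociceptor, and TRP channels report temperature and irritants. The comparison asks which of these features already separate the spinal levels before birth in female embryos.

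The libraries were not alike. Recovered reads ran from 19403023 (sacral F7) to 39257771 (lumbar F8), and the mitochondrial rRNA genes took between 18.1% and 49.3% of them. That share was higher in the sacral library of 2 embryos and lower in 3, a mean difference of 1.97 ± 10.5 percentage points (SD, n = 5; exact two-sided sign-flip permutation p = 0.75, where 0.0625 is the smallest p that 5 pairs allow), and -2.0 points without F9. Sacral F7 had the lowest median correlation with the other 9 libraries, 0.859 across genes. Embryo F8 stood apart in its level differences: across the tested genes they correlated with those of the other embryos at -0.07 to 0.05, whereas the other pairs of embryos gave 0.12 to 0.48. These correlations are across genes, which are not independent replicates.

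Of the 14295 genes, 31 (0.217%) differed between the levels at an adjusted p of at most 0.05 in limma, 10 with higher sacral (0.0700%) and 21 with higher lumbar values (0.147%). A gene past this threshold is said to be called. Posterior Hox genes, the peptide precursors Cartpt and Penk, the calcium channel Cacna1e and C1qtnf7 were higher in sacral DRG. The cold channel Trpm8, the cell adhesion gene Cdh12, the GABA receptor subunit Gabrg1, parvalbumin (Pvalb), the substance P precursor Tac1 and Hoxa7 were higher in lumbar DRG. Sizes ran from 0.59 to 4.69 log2 units, 24 of the 31 passed 1 log2 unit, and all 31 had the same sign in each of the 5 embryos. Over the 14295 genes tested, 4.34% were higher and 9.32% were lower in sacral DRG in all 5 embryos, and the median difference was -0.08. The 5 sacral values lay entirely above or below the 5 lumbar values in 30 of the 31, against 1.30% of all genes tested. The exception was ENSMUSG00000093448. The 31 were chosen by these same values, which favours equal signs and separate groups, so neither count is further evidence.

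**Figure D1:**
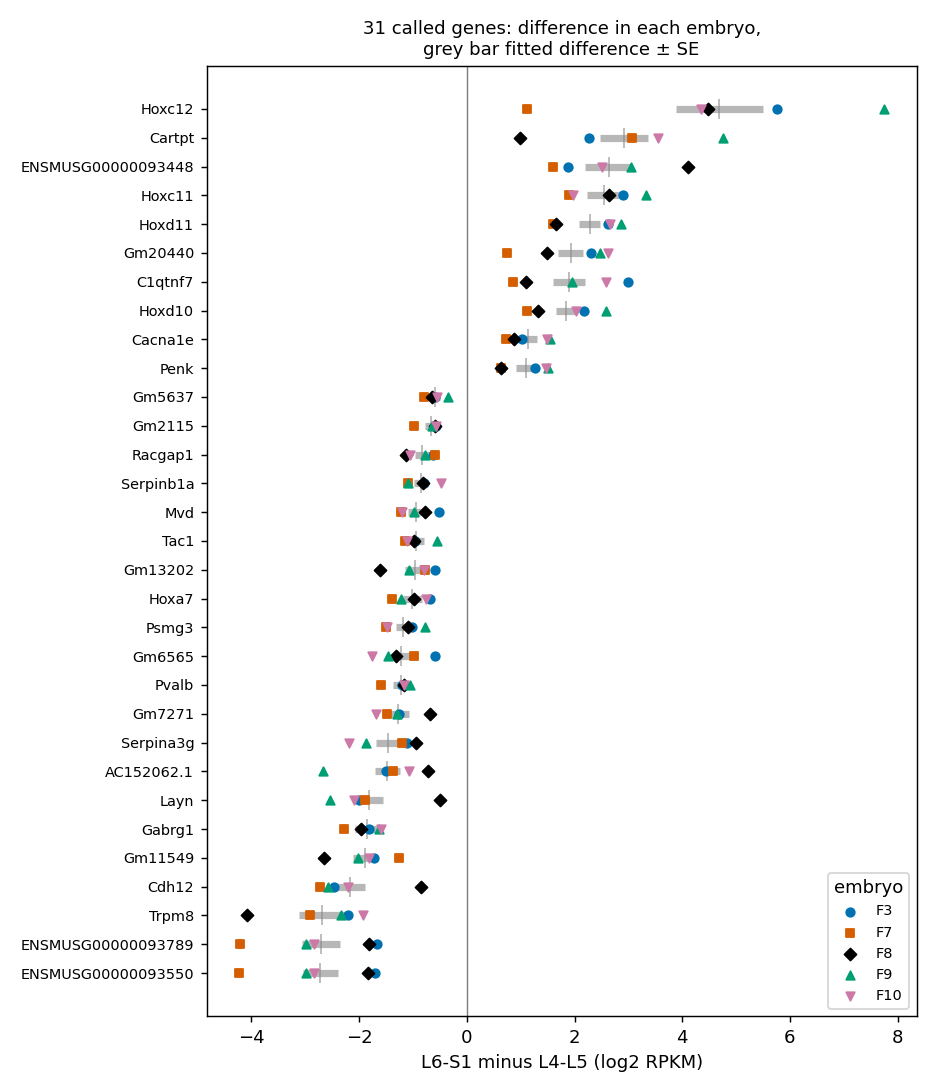
Difference between L6-S1 and L4-L5 ganglia (x axis, log2 RPKM) for each of the 31 called genes (y axis), with 1 symbol per embryo and a grey bar for the fitted difference ± SE. All 5 symbols of a gene lie on the same side of 0, and embryo F8 (black diamonds) lies closest to 0 for Cartpt, Layn and Cdh12.

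Leaving out F8 raised the number of called genes from 31 to 260 (1.82%), and all 31 were among them. Of the 260, 138 were higher (0.965%) and 122 lower (0.853%) in sacral DRG. F8 stood out in these same differences, so values given below without F8 are no independent evidence. Leaving out F7 gave 21 called genes, of which 18 were among the 31, and leaving out F9 gave 7, of which 6 were. Without F3 or without F10 a single gene, Hoxd11, was called. All 31 had 1 sign in every embryo, so leaving out 1 embryo could not reverse a direction. Most of the calls were lost without F3, F9 or F10. With the embryo as a fixed instead of a random block, 10 of the 31 stayed called: Hoxd11, Hoxd10, Pvalb, Gabrg1, Cdh12, Trpm8, Tac1, Gm7271, Gm11549 and ENSMUSG00000093448. The other 21 then had adjusted p-values of 0.0514 to 0.14 in limma. With the mitochondrial rRNA share as a covariate 17 of the 31 stayed called and 14 did not (adjusted p = 0.0544 to 0.0852, limma), among the latter Cartpt, Penk, Tac1, Trpm8, Cacna1e, C1qtnf7 and Hoxa7. Called in both of these fits were 7 genes: Hoxd11, Hoxd10, Pvalb, Gabrg1, Cdh12, Gm7271 and Gm11549.

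Sequences before the transcription start are shown for 5 called genes, namely a pair of neighbouring Hox genes, 2 peptide precursors and the cold channel. They are the 250 bases before the start listed by RefSeq in the mouse build GRCm38.p6, 5′ to 3′ on the strand of the gene. Capitals mark every match, on either strand, to a motif searched. CCAAT is a common promoter element, and TAATTA is a core that many homeodomain proteins bind. TGACG is a part of the cyclic AMP response element, and TATAAA is the TATA box. TTTATNG is a core that posterior homeodomain proteins bind.

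Hoxd11, second of 2 listed starts, chr2:74682073-74682322, plus strand: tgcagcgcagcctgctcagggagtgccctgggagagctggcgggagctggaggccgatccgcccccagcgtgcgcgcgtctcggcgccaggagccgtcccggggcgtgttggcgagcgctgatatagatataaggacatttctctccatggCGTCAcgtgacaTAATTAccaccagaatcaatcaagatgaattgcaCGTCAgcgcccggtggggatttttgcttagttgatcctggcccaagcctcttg
Hoxd10, chr2:74691641-74691890, plus strand: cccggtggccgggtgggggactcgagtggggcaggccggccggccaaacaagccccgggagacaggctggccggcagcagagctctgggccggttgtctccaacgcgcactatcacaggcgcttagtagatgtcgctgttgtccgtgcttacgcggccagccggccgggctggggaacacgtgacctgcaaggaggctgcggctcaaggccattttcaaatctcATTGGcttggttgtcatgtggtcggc
Cartpt, chr13:99900684-99900933, minus strand: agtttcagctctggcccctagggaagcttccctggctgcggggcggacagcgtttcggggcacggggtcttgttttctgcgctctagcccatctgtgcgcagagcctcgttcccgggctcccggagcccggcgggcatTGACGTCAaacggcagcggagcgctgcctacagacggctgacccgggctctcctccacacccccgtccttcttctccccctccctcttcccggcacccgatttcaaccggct
Tac1, chr6:7554811-7555060, plus strand: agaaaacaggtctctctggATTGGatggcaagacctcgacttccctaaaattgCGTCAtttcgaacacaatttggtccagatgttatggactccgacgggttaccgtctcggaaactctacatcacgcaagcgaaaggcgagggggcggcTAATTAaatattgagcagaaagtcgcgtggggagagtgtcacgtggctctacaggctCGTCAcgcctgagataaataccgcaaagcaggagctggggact
Trpm8, chr1:88306485-88306734, plus strand: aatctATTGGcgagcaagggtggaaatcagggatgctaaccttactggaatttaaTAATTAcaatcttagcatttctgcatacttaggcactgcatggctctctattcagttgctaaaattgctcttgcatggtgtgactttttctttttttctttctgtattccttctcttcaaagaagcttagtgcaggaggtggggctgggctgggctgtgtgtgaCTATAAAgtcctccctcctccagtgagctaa

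In Cartpt the TGACG matches on both strands overlap in the palindrome TGACGTCA, 112 bases before the start. In Trpm8 the TATAAA match, 30 bases before the start, overlaps a TTTATNG match on the other strand. Pvalb, also called but not shown, has 2 listed starts, and neither window held a match to any of the motifs. Of the 31 called genes, 17 had a start in the RefSeq table. TAATTA was found before a start of 4 of them (Hoxd11, Tac1, Trpm8 and Gabrg1), on both sides of the level difference, and before 5.65% of all listed genes. TGACG was found in 5 of the 17 against 19.8% of all genes, CCAAT in 6 against 37.5%, TTTATNG in 2 against 11.3% and TATAAA in 1 against 14.3%. A match describes the letters of the window and shows no binding.

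Hoxd11, Hoxd10, Hoxc11 and Hoxc12 were higher in sacral DRG. Of the 12 genes of paralog groups 10 to 13, 7 passed the filter. These 4 were called towards sacral DRG, against 0.0700% of all genes tested, and none towards lumbar DRG. The median difference of the 7 was 1.84, against -0.08 for all genes tested. Hoxc12, Hoxc11 and Hoxa11 passed the filter only through their sacral means (lumbar means -2.08, -1.7 and -1.55), which favours a higher median. Hoxd11, Hoxd10, Hoxc10 and Hoxa10 passed at both levels and differed by 2.28, 1.84, 0.46 and 0.13. In the order F3, F7, F8, F9, F10, which holds for every list of 5 values below, Hoxd11 read 1.12, 1.56, 1.70, 0.62 and 1.02 log2 RPKM in lumbar and 3.74, 3.15, 3.36, 3.49 and 3.67 in sacral DRG. The lowest sacral value lay well above the highest lumbar one, and the difference was 2.28 ± 0.19 (SE; 4.85-fold; adjusted p = 0.000852, limma). Hoxd11 was called in all 17 alternative fits.

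Hoxd10, its neighbour on chromosome 2, read 1.10, 1.47, 1.53, 1.01 and 1.51 in lumbar and 3.27, 2.59, 2.86, 3.60 and 3.54 in sacral DRG, again without overlap (1.84 ± 0.19, adjusted p = 0.00471, limma). Gm20440, a processed transcript at chr2:74521503-74532251 (mm9), overlaps both genes on the same strand, and its difference of 1.93 ± 0.23 (adjusted p = 0.00586, limma) is therefore uncertain, as its reads could be theirs and theirs its own. Group 11 also moved in the c cluster: Hoxc11 read -1.48, -1.71, -1.48, -2.44 and -1.37 in lumbar and 1.42, 0.19, 1.16, 0.89 and 0.60 in sacral DRG (2.55 ± 0.32, adjusted p = 0.00586; 0.0708 with a fixed block, limma).

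Hoxc12 showed the widest gap of all called genes and the least even one. It read -3.51, 1.44, -1.10, -5.17 and -2.05 in lumbar DRG, and 2.25, 2.56, 3.39, 2.58 and 2.30 in sacral DRG. The lumbar libraries held 1 to 68 reads each and 99 in all, with the 68 in F7, against 898 in the sacral libraries, and the difference was 4.69 ± 0.80 (adjusted p = 0.0429; 0.0951 with a fixed block, limma). The gap was 1.12 in F7, and at least 4.35 in the other 4 embryos.

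The other tested members of groups 10 to 13 did not pass the threshold. Hoxa11 was higher in sacral DRG in all 5 embryos (1.72 ± 0.44, adjusted p = 0.149, limma), and its counts cannot be told from those of the antisense gene Hoxa11as without strand. Hoxc10, the most abundant of the posterior genes at 3.65 to 4.11 in lumbar and 4.0 to 4.63 in sacral libraries, differed by 0.46 ± 0.12 (adjusted p = 0.159; 0.56 ± 0.12 and 0.0462 without F8, limma) and can share reads with the overlapping Gm20398. Hoxa10 differed by 0.13 ± 0.19 (adjusted p = 0.698, limma), and by -0.07 without F7.

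Further posterior genes lay below the filter and are described without a call. Hoxd13 had 0 reads in the 5 lumbar libraries, which allows up to 3 reads, and 43 in the 5 sacral ones. Hoxc13 had 30 lumbar and 370 sacral reads, and Hoxd12 had 11 and 59. Hoxd13 and Hoxc13 were higher in the sacral library of all 5 embryos (exact sign-flip permutation p = 0.0625, the smallest possible). Hoxd12 was higher in 4 embryos and had no read at either level in F9 (exact p = 0.125, with the difference set to 0 where both libraries of an embryo had no read). Hoxa13, with 4 lumbar and 22 sacral reads, was higher in 3 embryos, lower in F8 and without reads in F7 (exact p = 0.375). Hoxb13, with 0 lumbar and 5 sacral reads, was higher in F7 and F9 and had no read in the other 3 (exact p = 0.5).

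Genes of lower paralog groups showed no common direction. Hoxa7 read 3.36, 3.18, 2.72, 3.59 and 3.43 in lumbar and 2.68, 1.79, 1.73, 2.37 and 2.68 in sacral DRG, a difference of -1.01 ± 0.17 (adjusted p = 0.0429; 0.0541 with a fixed block and 0.0786 with the covariate, limma), and overlaps 2700086A05Rik on the other strand. It was the single called gene of the 17 tested in groups 1 to 8, against 0.217% of all genes tested. The median difference of the 17 was -0.07. None of the 3 tested genes of group 9 was called: Hoxb9 differed by -0.81 ± 0.17 (adjusted p = 0.094; 0.046 without F8, limma) and was lower in all 5 embryos, Hoxa9 by -0.31 ± 0.13 (adjusted p = 0.277) and Hoxd9 by 0.21 ± 0.19 (adjusted p = 0.557). Hoxc9 fell below the filter, with 402 lumbar and 249 sacral reads (-0.40 ± 0.77, SD, n = 5; exact sign-flip permutation p = 0.25). The Pbx, Meis and Pknox genes, whose products bind DNA together with Hox proteins, had a median difference of 0.0 over 8 tested genes with none called.

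**Figure D2:**
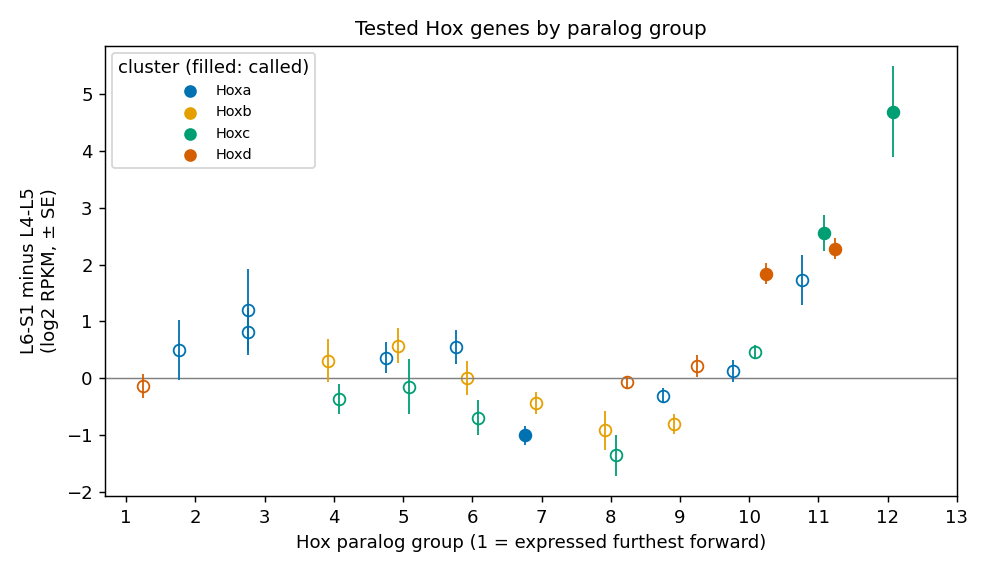
Difference between L6-S1 and L4-L5 ganglia (y axis, log2 RPKM ± SE) for every tested Hox gene by paralog group (x axis) and cluster (colour), with filled symbols for called genes. Filled symbols above 0 stand at groups 10 to 12, and the filled symbol below 0 is Hoxa7 at -1.01.

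Among the 13 tested precursors of neuropeptides, 3 were called, against 0.217% of all genes tested. Of these 2 were called towards sacral DRG and 1 the other way, and the median difference of the 13 was 0.10. Cartpt, which encodes the CART peptide, read 1.87, -0.24, 1.58, -0.47 and 0.55 in lumbar and 4.15, 2.82, 2.56, 4.29 and 4.09 in sacral DRG. The groups did not overlap, and the difference was 2.92 ± 0.44 (7.58-fold; adjusted p = 0.0243; 0.0763 with a fixed block and 0.0544 with the mitochondrial rRNA covariate, limma). It ranged from 0.99 in F8 to 4.76 in F9. Penk, the precursor of the enkephalins, which are endogenous opioids, read 2.75, 3.30, 3.62, 2.68 and 2.33 in lumbar and 4.02, 3.93, 4.26, 4.19 and 3.79 in sacral DRG. The sacral values were tight (SD 0.19) beside the lumbar ones (SD 0.51), and the difference was 1.10 ± 0.18 (2.15-fold; adjusted p = 0.0308; 0.0708 with a fixed block and 0.0666 with the covariate, limma). Penk overlaps A830012C17Rik on the other strand.

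Tac1, which encodes substance P and neurokinin A, was the most abundant called gene and moved the other way. It read 5.86, 5.49, 5.43, 5.81 and 6.04 in lumbar and 4.90, 4.34, 4.44, 5.24 and 4.93 in sacral DRG, and was lower in the sacral library of every embryo, with differences from -0.56 in F9 to -1.15 in F7 (-0.95 ± 0.15, adjusted p = 0.0279; 0.0678 with the covariate, limma). Calca, the precursor of CGRP and the usual partner of substance P in peptidergic nociceptors, was not called (-0.17 ± 0.17, adjusted p = 0.582, limma). Tac1 was the single called gene of 12 tested in that class, against 0.217% of all genes tested. Sst, the somatostatin precursor, was higher in the sacral library of 4 embryos and not in F8 (1.80 ± 0.46, adjusted p = 0.149, limma). Without F8 the difference was 2.29 ± 0.38 (adjusted p = 0.0315, limma), and Sst was chosen after its values were seen. The study reported that Sst was not detectable in DRG at this age, whereas here it passed the filter.

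**Figure D3:**
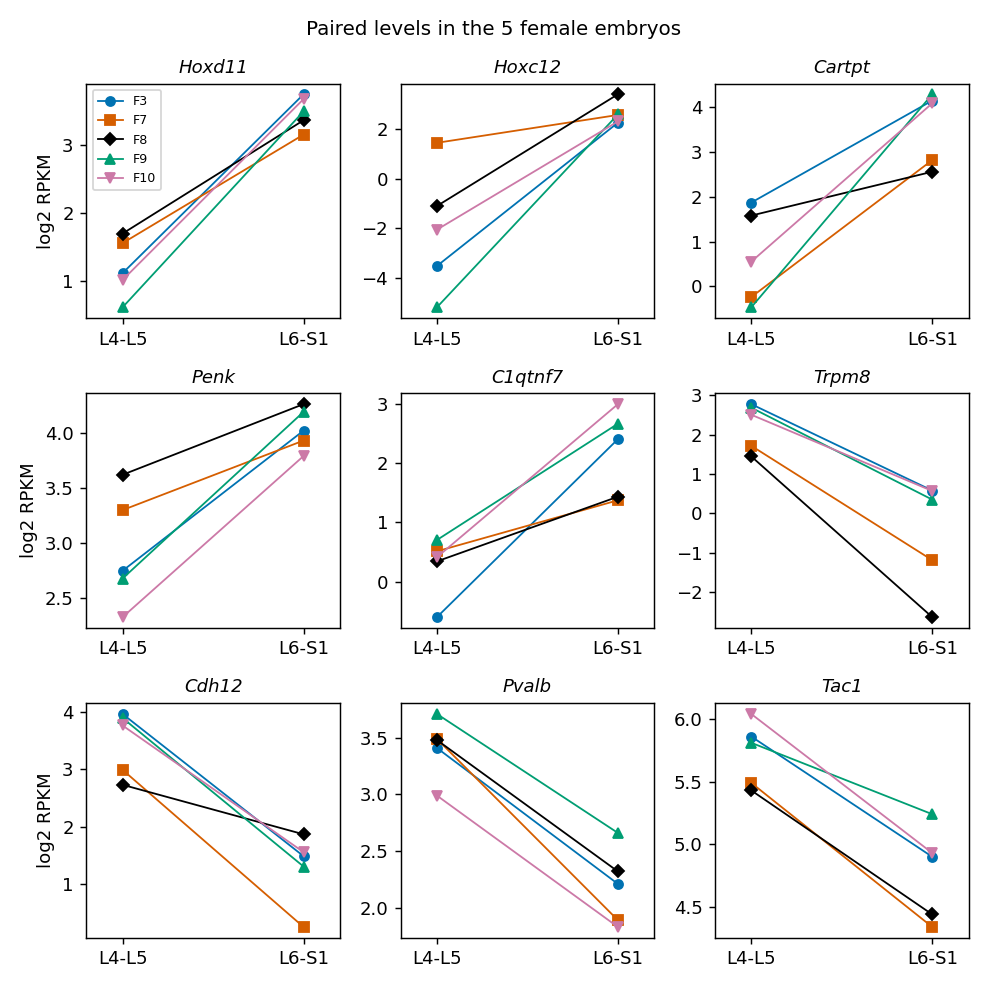
Log2 RPKM (y axis) in the L4-L5 and L6-S1 library (x axis) of each of the 5 female embryos, joined by a line, for 9 called genes. All lines of a gene run the same way, and the Hoxc12 line of F7 starts at 1.44 while the other 4 start at -1.10 or lower.

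Ion channels and receptors gave 3 further calls. Trpm8, the channel that opens to cold and menthol, read 2.78, 1.72, 1.45, 2.69 and 2.51 in lumbar and 0.58, -1.19, -2.64, 0.35 and 0.57 in sacral DRG. In reads these are 380 to 1077 per lumbar and 20 to 276 per sacral library, and the difference was -2.69 ± 0.43 (6.47-fold lower; adjusted p = 0.0301; 0.0815 with the covariate, limma). Trpm8 passed the filter only through its lumbar mean (2.23, against -0.46 in sacral DRG), which favours a lower sacral value. It was the single called gene of 10 tested TRP channels, against 0.217% of all genes tested. The median difference of the 10 was 0.10. Trpv1, the heat and capsaicin channel, differed by 0.50 ± 0.29 (adjusted p = 0.394, limma).

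Gabrg1, a gamma subunit of the GABA-A receptor, read 1.73, 1.11, 1.57, 1.97 and 1.75 in lumbar and -0.08, -1.17, -0.39, 0.33 and 0.14 in sacral DRG (-1.86 ± 0.21, adjusted p = 0.00586, limma). Gabrg1 also passed the filter only through its lumbar mean (1.63, against -0.23 in sacral DRG). It was the single called gene among 35 tested ligand gated channels, against 0.217% of all genes tested. The median difference of the 35 was -0.31. Cacna1e, the pore subunit of R-type calcium channels, read 0.49, 0.60, 0.53, -0.31 and 0.55 in lumbar and 1.51, 1.32, 1.41, 1.24 and 2.05 in sacral DRG (1.13 ± 0.18, adjusted p = 0.0301; 0.0951 with a fixed block and 0.0815 with the covariate, limma). It was likewise alone among 17 tested calcium channel genes, with a median of -0.12 and the same share of 0.217% over all genes. No sodium channel (10 tested, median -0.45), potassium channel (48 tested, median -0.27) or chloride channel (10 tested, median -0.15) was called. Over all 10 curated sets of the study, 224 of 298 genes were tested, with a median of -0.22. Of these, 1 was called towards the sacral and 2 towards the lumbar level, against 0.0700% and 0.147% of all genes tested.

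Pvalb, the calcium buffer of proprioceptors, was lower in sacral DRG. It read 3.41, 3.49, 3.48, 3.71 and 2.99 in lumbar and 2.21, 1.89, 2.32, 2.66 and 1.83 in sacral DRG, without overlap, and the 5 embryos gave -1.05 to -1.60 (-1.23 ± 0.14, 2.35-fold lower; adjusted p = 0.00586, limma). Of 10 tested genes of proprioceptors and other large myelinated neurons it was the called one, against 0.217% of all genes tested. The median difference of the 10 was -0.67. The neurofilament genes Nefh (-0.98 ± 0.29, adjusted p = 0.194) and Nefm (-1.28 ± 0.33, adjusted p = 0.149), and Etv1, a transcription factor that proprioceptors need (-0.97 ± 0.22, adjusted p = 0.117), did not pass. Without F8 the median was -0.96 and Nefm (adjusted p = 0.0317) and Etv1 (adjusted p = 0.024) passed in limma as well. Summed markers of all neurons were lower in the sacral than in the lumbar library of F3, F7, F9 and F10, by the values given below, and their part in these results was not tested. With whole ganglia, fewer cells of a type and less RNA per cell cannot be told apart.

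Cdh12, a type II cadherin of neuronal contacts, read 3.96, 2.99, 2.73, 3.89 and 3.76 in lumbar and 1.49, 0.26, 1.87, 1.31 and 1.56 in sacral DRG. The groups did not overlap, and the difference was -2.17 ± 0.27 (4.49-fold lower; adjusted p = 0.00586, limma), ranging from -0.86 in F8 to -2.73 in F7. It was the called member of 24 tested cadherins and protocadherins, against 0.217% of all genes tested, and the median of the 24 was -0.25. Its relatives Cdh9 (-2.04 ± 0.27, adjusted p = 0.0155), Cdh18 (-1.22 ± 0.17, adjusted p = 0.0159) and Pcdh19 (-0.86 ± 0.18, adjusted p = 0.0474) passed in limma without F8 and were named after their values were seen.

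Layn, which encodes a membrane receptor for hyaluronan, read 3.38, 2.27, 2.39, 3.56 and 3.25 in lumbar and 1.37, 0.37, 1.89, 1.01 and 1.15 in sacral DRG (-1.81 ± 0.26, adjusted p = 0.0221; 0.0708 with a fixed block, limma). F8 gave the smallest gap, -0.50. C1qtnf7, which encodes a secreted protein of the C1q and TNF related family, moved the other way, with -0.60, 0.51, 0.34, 0.70 and 0.41 in lumbar and 2.40, 1.37, 1.43, 2.66 and 2.99 in sacral DRG (1.90 ± 0.30, adjusted p = 0.0301; 0.0951 with a fixed block and 0.07 with the covariate, limma). It overlaps Gm15865 and Gm15866 on the other strand. Serpina3g, of the serine protease inhibitor family, ran from 1.81 to 3.19 in lumbar and from 0.61 to 1.69 in sacral DRG (-1.47 ± 0.22, adjusted p = 0.0243, limma).

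Mvd, an enzyme of the mevalonate step of cholesterol synthesis, ran from 2.55 to 3.25 in lumbar and from 1.31 to 2.37 in sacral DRG (-0.94 ± 0.16, adjusted p = 0.0404, limma) and overlaps Gm20388 on the other strand. It was the called member of 21 tested cholesterol genes, against 0.217% of all genes tested, and the median of the 21 was -0.31. Gm7271 (-1.28 ± 0.20, adjusted p = 0.0279) and the long non-coding Gm11549 (-1.89 ± 0.23, adjusted p = 0.00586) were also lower in sacral DRG in limma.

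Several called features are uncertain. ENSMUSG00000093550 (-2.72 ± 0.33) and ENSMUSG00000093789 (-2.71 ± 0.36) had no symbol or gene model in the annotation, and their values ran in parallel in all embryos. Both passed the filter only through their lumbar means (2.07 and 1.19, against -0.65 and -1.52 in sacral DRG). ENSMUSG00000093448 (2.63 ± 0.43, adjusted p = 0.0308, limma), likewise without a symbol, was the called gene whose groups overlapped. AC152062.1 (-1.48 ± 0.23), annotated as a microRNA gene, lies opposite Mex3d, and had 4 to 7 reads in each sacral library. Gm6565 (-1.22 ± 0.17), Gm13202 (-0.97 ± 0.17) and Gm5637 (-0.59 ± 0.10) are pseudogenes that can share reads with their parent genes. The last 2 of these, with Psmg3 (-1.18 ± 0.14), a proteasome assembly factor, Serpinb1a (-0.85 ± 0.13), a protease inhibitor, Racgap1 (-0.83 ± 0.14), a cytokinesis factor, and Gm2115 (-0.67 ± 0.10), fall outside the rule for named genes and complete the 31.

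The study named 20 genes as examples from a much larger set that differed between the levels at this age. That set came from these embryos and the male ones together, so the list is not independent evidence of its direction. Here, with the female embryos alone and another fit, 18 were tested and 4 called, against 0.217% of all genes tested. These were Cartpt in sacral DRG, and Pvalb, Trpm8 and Tac1 in lumbar DRG. Of the 18, 7 were higher and 6 lower in all 5 embryos, against 4.34% and 9.32% of all genes tested. The nicotinic receptor subunits Chrna3 and Chrnb4, which form the ganglionic type of receptor, were among those higher throughout. Chrna3 read 1.68, 0.28, 1.0, 1.24 and 1.28 in lumbar and 3.06, 1.38, 1.87, 2.47 and 2.51 in sacral DRG. Its difference of 1.16 ± 0.23 had an adjusted p of 0.0815 in limma (0.0348 without F8, 0.243 without F3 and 0.351 without F10). Chrnb4 differed by 1.08 ± 0.31 (adjusted p = 0.179, limma).

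The muscarinic receptor Chrm2 and the neurotrophin Bdnf leaned towards lumbar DRG in all 5 embryos. Chrm2 differed by -1.40 ± 0.27 (adjusted p = 0.0816, limma) and Bdnf by -1.56 ± 0.28 (adjusted p = 0.0528, limma). Without F8 both passed, at 0.0199 and 0.0159, but not without F3 (0.282 and 0.252) or F10 (0.419 and 0.277). Ntf3, the other neurotrophin tested, which sustains proprioceptors, read 2.56, 1.22, 1.65, 2.17 and 2.22 in lumbar and 0.16, -2.46, 0.77, -0.60 and 0.34 in sacral DRG (-2.32 ± 0.41, adjusted p = 0.0528; 0.0171 without F8, limma). Its groups did not overlap, although it missed the threshold, and its adjusted p was 0.254 without F3 and 0.23 without F10 (limma). Ntf3 passed the filter only through its lumbar mean (1.96, against -0.36 in sacral DRG).

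The remaining genes of that list did not pass in limma. Sstr4, a somatostatin receptor, differed by 0.78 ± 0.17 (adjusted p = 0.109), Htr3a, a serotonin-gated channel, by 0.72 ± 0.25 (0.232) and Calb1, a calcium buffer, by 0.45 ± 0.31 (0.44), each higher in all 5 embryos. The GABA-A subunits Gabra3 and Gabrg3 differed by 0.64 ± 0.25 (0.257) and 0.58 ± 0.23 (0.266), the guidance cue Ntn1 by 0.76 ± 0.30 (0.261) and the transcription factor Snai2 by 0.52 ± 0.34 (0.424). Nos1, the neuronal nitric oxide synthase, differed by -0.71 ± 0.30 (0.284). Below the filter, the oestrogen receptor Esr1 had 691 lumbar and 896 sacral reads and was higher in 4 of 5 embryos (exact sign-flip permutation p = 0.125). Htr2c, a serotonin receptor, had 380 and 139 reads and was lower in all 5 (exact p = 0.0625).

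Median differences of neuronal and fibroblast genes had opposite signs in each embryo, and F8 had the reverse signs of the other 4. The median difference over 12 tested pan-neuronal genes was -0.19, -1.13, 0.36, -0.58 and -0.66 in the 5 embryos. The 18 tested genes of fibroblasts and meninges gave 0.62, 0.98, -0.34, 0.57 and 1.29. Thus the sacral library was lower in neuronal and higher in fibroblast transcripts in F3, F7, F9 and F10, and the reverse in F8. No member of either list was called over the 5 embryos, the medians being -0.47 and 0.71. Without F8 the medians were -0.71 and 0.92. In limma 6 of the 18 fibroblast genes then passed towards sacral DRG, against 0.965% of all genes tested. Among them were Zic1 (1.30 ± 0.22, adjusted p = 0.0317) and Fn1 (1.13 ± 0.20, adjusted p = 0.0329), named after their values were seen. F8 had the reverse sign for this list, so leaving it out favours such calls.

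Summed RPKM of the pan-neuronal genes was 3050, 1680, 1520, 3340 and 2860 in the lumbar and 2400, 677, 1740, 1950 and 1630 in the sacral libraries, lowest in sacral F7. Summed fibroblast RPKM was 435, 524, 745, 336 and 355 in lumbar and 558, 1010, 583, 469 and 701 in sacral DRG. Skeletal muscle genes were uneven, with 274, 147, 568, 29.2 and 62.9 in lumbar and 83.4, 94.2, 115, 37.8 and 33.8 in sacral DRG, highest in lumbar F8. Their part in the level differences was not tested. Tubb3, a neuronal tubulin, differed by -0.50 ± 0.31 (adjusted p = 0.406, limma) and had the sign of its list in each embryo except F3 (0.03). Acta1, muscle actin, differed by -0.68 ± 0.46 (adjusted p = 0.444) and the muscle list had a median of -1.23 over 15 tested genes with none called in limma.

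**Figure D4:**
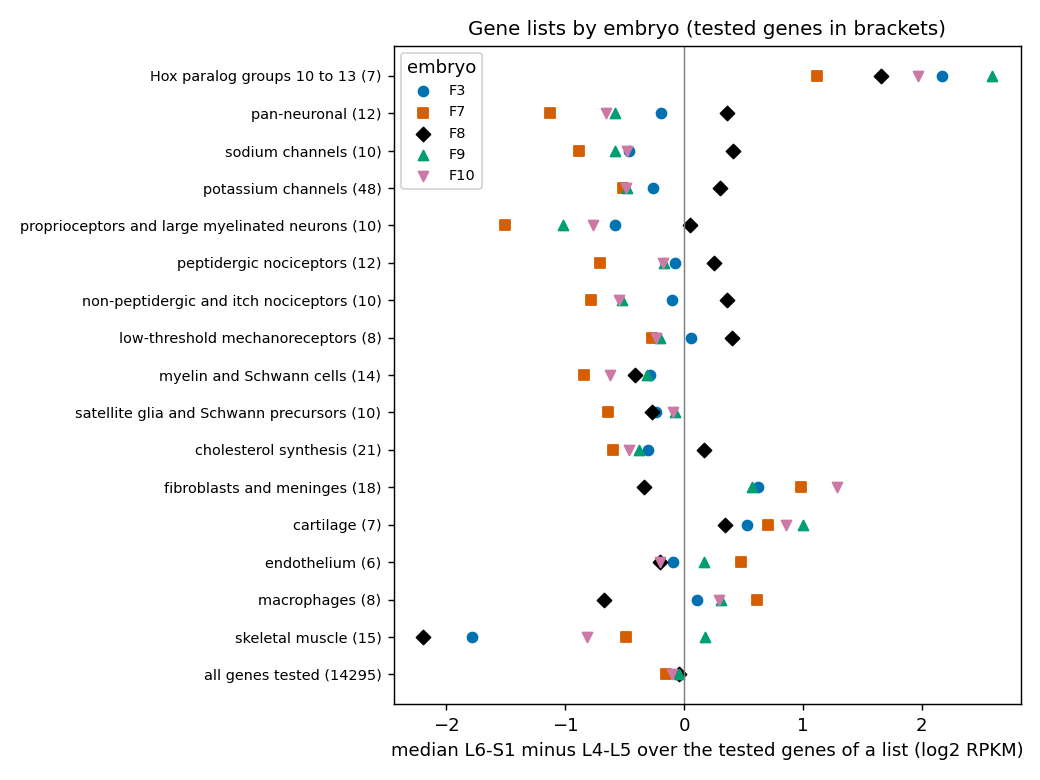
Median difference between L6-S1 and L4-L5 ganglia (x axis, log2 RPKM) over the tested genes of each list (y axis), 1 symbol per embryo. F8 (black diamonds) lies right of the other embryos for the neuronal lists, at 0.36 for pan-neuronal genes, and left of them for fibroblast genes, at -0.34. The posterior Hox genes lie above 1 in all 5 embryos, and some of them passed the filter only through their sacral values.

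Myelin and cartilage lists had medians of 1 sign in all 5 embryos, as had satellite glia and some other lists. The median over all genes tested was itself below 0 in each embryo, at -0.05, -0.15, -0.04, -0.04 and -0.1. Of 14 tested genes of myelin and Schwann cells, 8 were lower in sacral DRG in every embryo, against 9.32% of all genes, and the embryo medians were -0.29, -0.84, -0.41, -0.31 and -0.62. None was called: Mbp, a main myelin protein, differed by -0.61 ± 0.12 (adjusted p = 0.0816, limma). The 7 tested cartilage genes had medians of 0.53, 0.71, 0.34, 1.0 and 0.86, with Col2a1, the collagen of cartilage, at 0.89 ± 0.22 (adjusted p = 0.148, limma) and Col1a1, the collagen of bone and fibroblasts, at 0.72 ± 0.29 (adjusted p = 0.267). The defining spinal cord genes Mnx1, Olig2 and Slc32a1, and the sympathetic gene Dbh, were below the filter at both levels.

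Male embryos served to show where the female difference departs from the rest of the series. In limma over all 20 libraries no gene (0 of 14295, 0.00%) had a female level difference that differed from the male one, with 449 genes at an unadjusted p below 0.05 and a smallest adjusted p of 0.492. That gene was Arf5, a small GTPase, with 0.20 in females and -1.14 in males (difference 1.34 ± 0.25). The next 4 by p were Gm12040, Gm11053, Zswim7 and Epha6, each at an adjusted p of 0.995. The absence of a call does not show that the sexes were alike.

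Of the 31 genes called in females, 31 had a male difference of the same sign, compared with 69.1% of all genes tested, and 20 were called in a fit of the 10 male libraries alone. These 20 were 64.5% of the female and 18.7% of the 107 male calls (0.749% of genes tested). In absolute size the male difference was the smaller one for 23 of the 31. These genes were chosen by their female values, which favours a larger female size. Hoxd11 differed by 2.28 ± 0.19 in females and 2.10 ± 0.17 in males, Cartpt by 2.92 ± 0.44 and 3.40 ± 0.23, Pvalb by -1.23 ± 0.14 and -1.42 ± 0.23, and Trpm8 by -2.69 ± 0.43 and -1.63 ± 0.25. ENSMUSG00000093448 stood farthest from the diagonal on the side of the females, at 2.63 ± 0.43 against 0.23 ± 0.82, and its female minus male difference of 2.39 ± 1.03 had an adjusted p of 0.995.

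**Figure D5:**
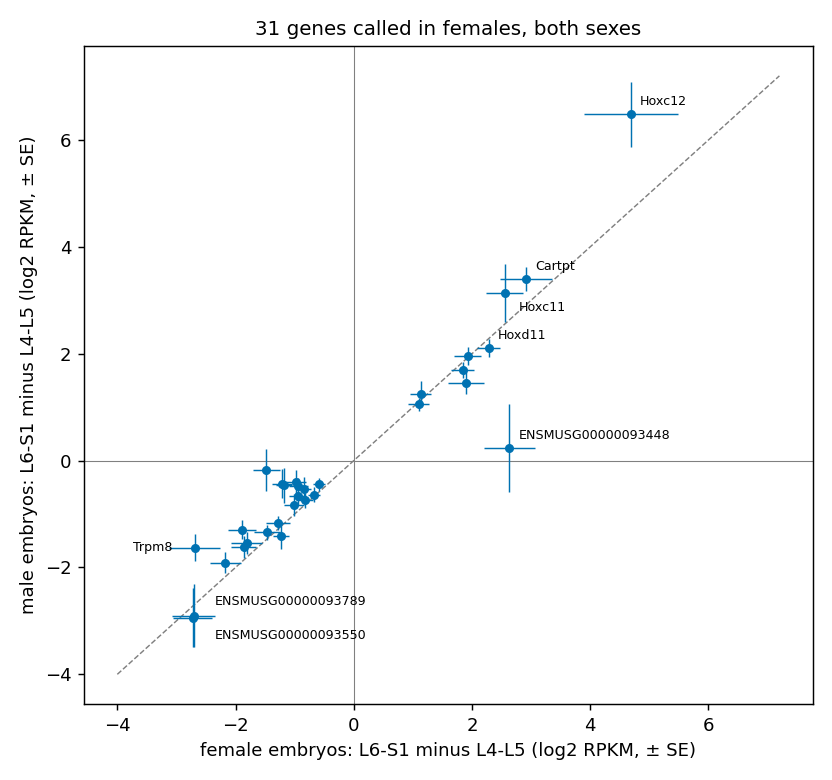
Difference between L6-S1 and L4-L5 ganglia (log2 RPKM ± SE) in female embryos (x axis) and male embryos (y axis) for the 31 genes called in females, with a dashed line of equal values. All points lie in the lower left or upper right quadrant, and ENSMUSG00000093448 lies near 0 for males.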

How the data were processed

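Total RNA of whole DRG was amplified (Ovation RNA-Seq System) and tagged (Nextera XT) before sequencing. Per the labels and the methods, the authors aligned reads to mm9 with Subread, kept uniquely mapped reads, counted them per Ensembl gene with featureCounts, scaled libraries by TMM in edgeR, applied voom and deposited log2 RPKM values. Strand use is not stated, so overlapping and antisense genes are uncertain.

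All 20 columns were matched to samples by their labels. Reads were worked back from the log2 RPKM values with exon lengths of GENCODE M1 (mm9), and 98.27% of values lay within 0.05 of a whole read. A blank was set to 0.5 reads, or, for genes without such reads, to 1 log2 unit below the lowest value. Counting limits cover counting error only, since amplified reads are not independent molecules.

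Level differences were tested with limma 3.58.1 (R 4.3.3, statmod 1.5.0): a mean per level, embryo as a random block (duplicateCorrelation, consensus correlation 0.386), eBayes with a trend, two-sided p-values adjusted by Benjamini-Hochberg over the 14295 genes tested. The fit was tested on simulated data with the same spread and embryo correlation for every gene and no embryo that stood apart as F8 did. That test therefore does not show how the fit handles such features of these data. Both libraries of a pair came from 1 embryo, and their deviations from the group means correlated at 0.507 (F3), 0.655 (F7), 0.0271 (F8), 0.178 (F9) and 0.0214 (F10). Single genes below the filter and library shares were tested by exact sign-flip permutation, and an embryo without a read of a gene at either level counted as no difference. P-values rest on the spread between these embryos, and those of limma also on a correlation and a spread estimated across genes.

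The embryos, gene lists and rules were chosen with earlier results of these data known. Named were, among called genes of 1 sign in all 5 embryos, the 12 largest differences in each direction, Hox genes of groups 9 to 13, the study's level genes, called or defining members of other lists, and the 5 smallest p-values between sexes. Alternatives were: other blocks, filters, pseudocounts (1 and 0.1), scalings, weights, a mitochondrial rRNA covariate, voom on recovered reads, and leaving out each embryo.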

Additional observations from a re-analysis of the deposited data

Results flagged for a closer look

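In 99 groups of 5 values (levels and differences of the 31 called genes, and depth, genes detected and mitochondrial rRNA share of the libraries), 10 held 1 sample far from the other 4, where chance gives about 1 in 20. The level difference of Pvalb was farthest from 0 in F7 (-1.6), that of Gm2115 likewise in F7 (-0.98), and that of Cdh12 nearest to 0 in F8 (-0.86). Gm7271 was low in sacral F7 (3.3 log2 RPKM). In lumbar libraries, Serpinb1a (1.77) and Gm13202 (1.27) were low in F7, C1qtnf7 (-0.6) in F3 and Cacna1e (-0.31) in F9. The mitochondrial rRNA share was low in sacral F3 (18.1%), and depth was high in lumbar F8 (39257771 reads).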

How the results depend on the processing

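The direction of all 31 called differences held in every alternative run. For many runs this could not be otherwise. Changes of block or filter leave the fitted difference as it was. Leaving out 1 embryo cannot reverse genes with 1 sign in every embryo. None of the female minus male fits called a gene. The count of calls depended strongly on the model: from 31 (10 higher and 21 lower in sacral DRG) it went to 4 without the replicate block (3 and 1), 17 with the embryo as a fixed block (7 and 10), 10 of them among the 31, 152 with all 20 libraries in 1 fit (31 and 121), 13 without a filter (5 and 8) and 1481 with sample weights (582 and 899). Quantile normalisation left 13 lower genes. The mitochondrial rRNA covariate gave 21 calls, 17 of them among the 31. Leaving out 1 embryo gave 1 to 260 calls, 1 to 138 higher and 0 to 122 lower; the lowest counts came without F3 or F10 and the highest without F8. With 4 embryos fewer pairs are left, and apart from that the cause was not tested. Pairing is by animal, so the fit without the block is given for completeness. Hoxd9 (0.21) went to -0.01 with sample weights. Hoxa10 ranged from -0.07 to 0.28 and the difference in mitochondrial rRNA share from -2.0 to 3.95 points when 1 embryo was left out. Low counts limit Hoxc12 in lumbar DRG, AC152062.1 and the Hox genes below the filter.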

Other observations

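Gene families of axon guidance and patterning, listed beside the lists above, gave no call over the 5 embryos. For the counts below, 4.34% of all genes tested were higher and 9.32% lower in sacral DRG in all embryos. Of 32 tested ephrins, Eph receptors, Slit, Robo and netrin genes 5 were higher in sacral DRG in all embryos and 0 lower, with a median difference of 0.05. Efnb3, an ephrin ligand, differed by 1.04 ± 0.21 (adjusted p = 0.0824; 1.28 ± 0.17 and 0.0159 without F8, limma). Of 25 semaphorins, plexins and neuropilins 4 were higher in all embryos and 0 lower (median -0.10), with Nrp2, a semaphorin receptor, at 0.59 ± 0.15 (adjusted p = 0.149; 0.0317 without F8, limma). Of 24 tested Wnt pathway genes 4 were higher and 2 lower in all embryos (median 0.29), and Bmp4, of the 30 tested BMP and TGF-beta genes, passed without F8 (1.60 ± 0.25, adjusted p = 0.024, limma). These genes were chosen after their values were seen.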
